A study of Penicillium oxalicum with 6 samples.

Results

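The most abundant mRNAs of *Penicillium oxalicum* from genes without a listed carbohydrate-active enzyme entry were described in the engineered strain GXUR001 and its parental strain TE4-10. Annotated genes (POX_ identifiers) were ranked by their mean FPKM over 5 libraries, and the first 100 were taken. FPKM expresses sequenced fragments per unit of gene length and of mapped fragments, so that levels can be set side by side across genes and libraries. From these 100, 8 genes with a carbohydrate-active enzyme entry in the study's table of differential genes were removed. The copy of that table used here ends within the POX_d identifiers, and 65 of the genes kept had no entry in it. No gene was removed for a transcription factor entry, as *POX_b03346*, or for a place in the stretch *POX_f08098* to *POX_f08140*. This left 92 genes of 9822 annotated genes, and the files held 11159 rows in all, 1337 of them outside the annotation. The measured level chose these genes, so their levels are given as a description. GXUR001 supplied 3 of the 5 libraries behind the ranking, and a ranking by the mean of the strain means shared 90 of 92 genes with this one.

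GXUR001 carries a deletion of *PoxCxrC* and overexpresses *PoxAmyR* (*POX_f08097*), both in the background of TE4-10. TE4-10 is labelled as wild type, but per the study's methods it comes from mutagenesis of a strain that lacks *PoxKu70* and overexpresses the glucoamylase PoxGA15A from a cellulose-inducible promoter, and GXUR001 shares all of this. Mycelia of both strains were grown for 24 h in glucose and moved for 24 h to an enzyme-producing medium. The study's methods name wheat bran plus Avicel (microcrystalline cellulose) as its carbon source, whereas the labels name raw starch alone. Each strain had 3 labelled replicates. All 3 libraries of GXUR001 and replicates 1 and 3 of TE4-10 entered the comparisons, whereas replicate 2 of TE4-10 was not analysed here. The mycelium label was not checked, because no marker gene of other cell forms was named in the sources used here. In such bulk samples, fewer cells of a type and less RNA per cell cannot be told apart.

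In growing fungal hyphae, a small set of genes with housekeeping roles usually supplies a large share of the mRNA. Histones H3 and H4 form the inner part of the nucleosome and are made mainly when DNA is replicated. Actin builds the filaments that carry secretory vesicles to the hyphal tip, and cellodextrin transporters take up short cellulose fragments that signal cellulose to a filamentous fungus.

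FPKM summed to between 1218691 and 1295493 per library, and the median row had 17.6 to 20.1 FPKM in GXUR001 and 23.0 to 23.8 FPKM in TE4-10. The files state no read numbers, and the study gives the same rounded number of clean reads for each sample. From the steps of whole reads among low values, the depth of GXUR001 libraries was estimated at 1.1, 1.07 and 1.06 times that of TE4-10 replicate 1. For TE4-10 replicate 3 the factor was 1. Each estimate rests on 27 to 50 rows at a step among 629 to 718 rows compared, so these factors are rough. Typical rows were lower in GXUR001, so FPKM was rescaled by a factor per library, the median ratio of its rows to their geometric mean over libraries. This factor averaged 0.932 in GXUR001 and 1.13 in TE4-10, and with it the median log2 fold change over all rows was 0.00, against −0.26 for FPKM as deposited. The overexpressed *POX_f08097* had 90.6, 84.1 and 74.3 FPKM in GXUR001, against 62.8 and 66.7 FPKM in TE4-10, with a log2 fold change of 0.62 (SE 0.15, limma with Benjamini-Hochberg adjustment, adjusted p = 0.048). This difference was not called without GXUR001 replicate 1 or 2 or without either TE4-10 library (adjusted p = 0.087 to 0.17), and it held without GXUR001 replicate 3 (adjusted p = 0.048). The identifier of the deleted *PoxCxrC* was not paired with its name in the sources used here, so the deletion was not checked.

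The 92 genes took 28.4% ± 0.455 (SD, n = 3) of all FPKM in GXUR001 and 27.1% ± 0.364 (SD, n = 2) in TE4-10. By library, the share was 27.9%, 28.6% and 28.8% in GXUR001, against 27.3% and 26.8% in TE4-10. The GXUR001 libraries all lay above the TE4-10 libraries, by 1.34 percentage points on average. No test was made on this share, because its members were chosen by level. A single gene, *POX_u09930*, supplied 2.00%, 1.52% and 1.12% of all FPKM in GXUR001, against 0.00846% and 0.931% in TE4-10. Without it the share was 25.9%, 27.0% and 27.7% in GXUR001 and 27.3% and 25.9% in TE4-10. Here the strains overlapped, and their means differed by 0.258 percentage points. The gene was left out of the share but not out of the summed FPKM.

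The rest of the FPKM was divided differently between the strains. The 8 removed enzyme genes took 3.30%, 3.08% and 2.52% in GXUR001, against 2.41% and 1.503% in TE4-10. Rows outside the annotation took 13.7%, 10.8% and 10.2% in GXUR001, against 5.89% and 8.15% in TE4-10. All other annotated genes took 55.1%, 57.6% and 58.5% in GXUR001, against 64.4% and 63.5% in TE4-10, and here the GXUR001 libraries were all lower. Counted over annotated genes alone, the 92 genes held 32.3%, 32.0% and 32.0% in GXUR001, against 29.0% and 29.2% in TE4-10. The share of FPKM is a share per unit of gene length. Weighted by gene length, over rows with a listed length only, it was 23.5%, 23.7% and 24.0% in GXUR001, against 22.7% and 21.5% in TE4-10. This weighted share leaves out *POX_u09930* and the rows outside the annotation, so its base differs from that of the share over all rows.

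**Figure D1:**
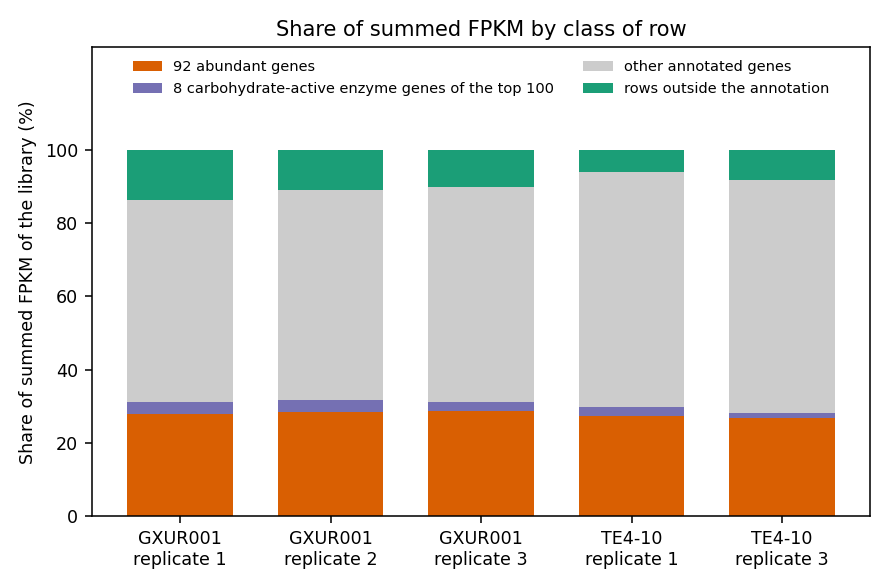
Share of summed FPKM (%) in each library, GXUR001 replicates 1, 2 and 3 and then TE4-10 replicates 1 and 3, stacked by class of row. The 92 abundant genes form a band of 26.8% to 28.8% in all 5 libraries, while the band of rows outside the annotation spans 5.89% to 13.7%.

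Levels fell steeply down the ranking. The mean FPKM reached 31330 in *POX_c04726* and was 1537 in *POX_g09290*, at rank 100, with a median of 2461 over the 92 genes. The median over all annotated genes was 26.5. Of the 92 genes, 6 exceeded 10000 FPKM, 12 exceeded 5000 and 65 exceeded 2000. The first genes past the threshold, *POX_b02906* with 1527 FPKM and *POX_c04732* with 1525 FPKM, were close to the last gene inside it. The 10 genes at the head of the list took 11.3%, 11.5% and 11.7% of all FPKM in GXUR001, against 9.93% and 9.90% in TE4-10. They include *POX_u09930*, which alone took 2.00%, 1.52% and 1.12% in GXUR001, against 0.00846% and 0.931% in TE4-10. Their share without it was not counted. Both strains drew on much the same genes: 80 annotated genes stood among the first 100 of GXUR001 and of TE4-10 alike, and 84 of the 92 were among the first 100 in GXUR001 and 81 in TE4-10.

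Most of these genes were short. A gene length was listed for 91 of them in a reference gene table (assembly ASM172317v3), with *POX_u09930* as the exception. Their median length was 783 bp, against 1360.5 bp over 9718 annotated genes. Genes under 1000 bp made up 71.4% of the 91, that is 65 genes, against 33.3% of the annotated genes. The shortest was *POX_a01262* with 306 bp. Only 7 exceeded 2000 bp, among them the cellodextrin transporter gene *POX_c04047* (2260 bp), the actin gene *POX_c04656* (2250 bp) and *POX_d05848* (5844 bp). FPKM divides by gene length, and the part of that division in the short lengths was not tested.

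Functions were scarce. The copy of the study's table used here holds 1998 differential genes and ends within the POX_d identifiers, and it lists 27 of the 92 genes. Of these, 24 are given as hypothetical protein, and the other 3 are histone H4, histone H3 and the cellodextrin transporter cdt-c. The other 65 had no entry there, so they were not screened for enzyme or transcription factor entries, and the study's methods name 1 of them, *POX_c04656*, as actin. The set therefore holds annotated genes without a listed enzyme entry, not genes shown to lie outside the enzymes.

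The 2 most abundant genes stood well apart from the rest, and neither was called between the strains. *POX_c04726*, which has no listed function, had 30644, 31720 and 33066 FPKM in GXUR001, against 35712 and 25506 FPKM in TE4-10. It alone took 2.54% ± 0.0393 (SD, n = 3) of all FPKM in GXUR001 and 2.45% ± 0.502 (SD, n = 2) in TE4-10. The TE4-10 values lay on both sides of the GXUR001 values. After rescaling the GXUR001 libraries all lay higher, with a log2 fold change of 0.35 (SE 0.20, adjusted p = 0.26) that did not pass the test. *POX_d05964* had 23906, 25938 and 30505 FPKM in GXUR001, against 29431 and 26437 FPKM in TE4-10. Here too the strains overlapped as deposited and not after rescaling, and the log2 fold change of 0.21 (SE 0.16, adjusted p = 0.41) turned to −0.066 with FPKM as deposited.

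Of the 16 genes that stood among the first 20 ranks, 3 (18.8%) were called between the strains, beside 17.9% of all rows. *POX_a01427* had rescaled FPKM of 14467, 14290 and 16231 in GXUR001, against 8432 and 9084 in TE4-10, and rose by a log2 fold change of 0.77 (SE 0.15, adjusted p = 0.027). *POX_d05594* had rescaled FPKM of 12275, 11967 and 14750 in GXUR001, against 6854 and 6686 in TE4-10, and rose by 0.93 (SE 0.16, adjusted p = 0.021). *POX_f08094*, with only 2 genes between it and the overexpressed *POX_f08097* in the reference gene order, had rescaled FPKM of 6212, 6076 and 5840 in GXUR001, against 3934 and 4250 in TE4-10. It rose by 0.56 (SE 0.12, adjusted p = 0.034). The study's primers join the *PoxAmyR* overexpression cassette to flanks of *PoxCxrC*, not to the native place of *POX_f08097*. A link of this rise to the gene order was not tested. In all 3 the strains did not overlap. Each lost its call when any GXUR001 library or TE4-10 replicate 1 was left out, with an adjusted p of 0.050 to 0.18, with FPKM as deposited (0.064 to 0.17), and with no filter on low rows (0.15 to 0.35).

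The other 13 of the 16 were not called. *POX_g08724* had 11086, 14360 and 16544 FPKM in GXUR001, against 11219 and 12994 FPKM in TE4-10, and the strains overlapped as deposited but not after rescaling (log2 fold change 0.47, SE 0.19, adjusted p = 0.15). *POX_e06689* had 9680, 9708 and 8648 FPKM in GXUR001, against 7952 and 5371 FPKM in TE4-10, with a log2 fold change of 0.79 (SE 0.21, adjusted p = 0.058). Its GXUR001 libraries were all higher, and it passed the test without TE4-10 replicate 1 (adjusted p = 0.047), with adjusted p between 0.038 and 0.24 over all alternatives. In the other direction, *POX_d04942* had 5830, 6720 and 6896 FPKM in GXUR001, against 9599 and 9084 FPKM in TE4-10. Those GXUR001 values were all lower, with a log2 fold change of −0.25 after rescaling (SE 0.13, adjusted p = 0.22). *POX_d04900* had 4510, 4832 and 4446 FPKM in GXUR001, against 7977 and 6803 FPKM in TE4-10, with a log2 fold change of −0.40 (SE 0.14, adjusted p = 0.11). It was also lower in every GXUR001 library and passed the test with FPKM as deposited (−0.68, adjusted p = 0.029). *POX_c03575*, *POX_b03247*, *POX_b02525*, *POX_c04719* and *POX_c04062* had mean levels of 4681 to 5842 FPKM and log2 fold changes of 0.11 to 0.61, none of them called.

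The lowest fold change of the 16 belonged to *POX_a00825*. It had rescaled FPKM of 3437, 2836 and 2171 in GXUR001, against 8119 and 4214 in TE4-10. All GXUR001 libraries were lower, but the TE4-10 libraries differed from each other almost as much as the strains did. The log2 fold change was −1.08 (SE 0.34, adjusted p = 0.082), and it was −0.61 without TE4-10 replicate 1 (adjusted p = 0.22) and −1.55 without TE4-10 replicate 3 (adjusted p = 0.038).

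**Figure D2:**
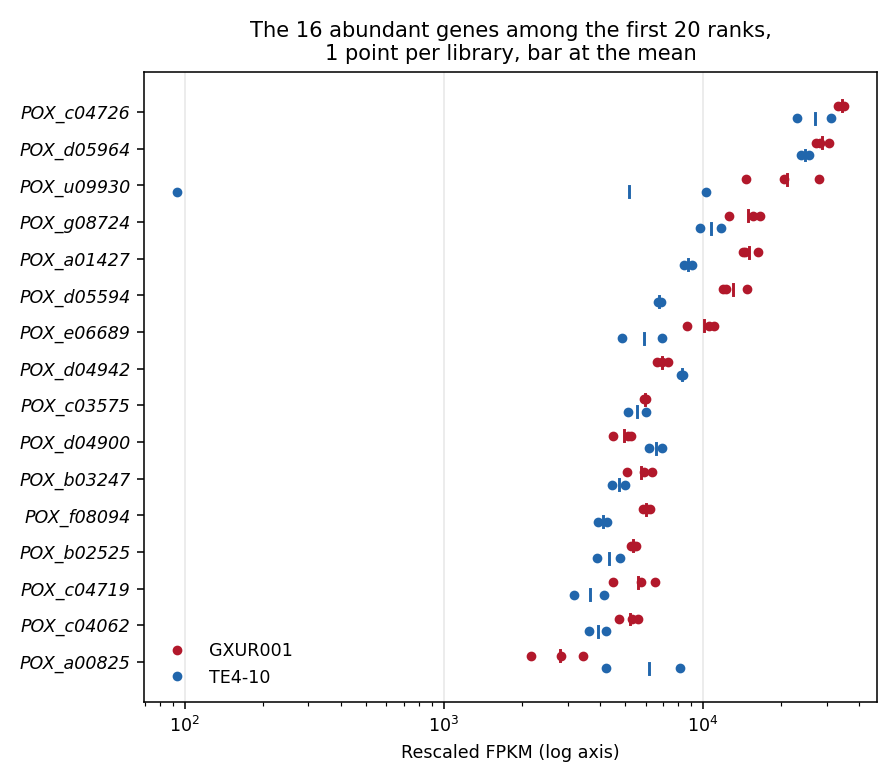
Rescaled FPKM (log axis) of the 16 abundant genes among the first 20 ranks, 1 point per library, GXUR001 above TE4-10 for each gene, with a bar at the strain mean. In most genes the strains lie close together, and TE4-10 replicate 1 of *POX_u09930*, at 93.7, lies far to the left of every other point.

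GXUR001 was then compared with TE4-10 by limma on log2(rescaled FPKM + 1) over the 9636 rows with a mean FPKM of at least 1, with Benjamini-Hochberg adjustment over all of them. All 92 genes were tested. At an adjusted p under 0.05, 25 genes (27.2%) were called, beside 17.9% of all rows. Higher calls made up most of these: 21 genes (22.8%, background 9.76%) were higher in GXUR001 and 4 genes (4.35%, background 8.11%) were lower. The ranking that chose the 92 genes drew 3 of its 5 libraries from GXUR001, so genes high in that strain entered more easily, and the split between higher and lower calls is given as a description. Of the 21 genes called higher, 8 were not among the first 100 of TE4-10, and of the 4 called lower, 3 were not among the first 100 of GXUR001. At an unadjusted p under 0.05, 40 genes (43.5%, background 35.6%) passed, 30 higher and 10 lower. After rescaling, the libraries of the strains did not overlap in 62 genes (67.4%, background 53.1%). Of these, 46 (50%, background 26.7%) were higher in GXUR001 and 16 (17.4%, background 26.4%) lower. This split depended on the scale: with FPKM as deposited, 28 genes without overlap were higher and 34 lower. The share over all rows was not counted on the deposited scale.

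The median log2 fold change of the 92 genes was 0.21, against 0.00 over all rows, and 63 genes had a positive and 29 a negative value. Another scaling moves the 92 genes and all rows by about the same amount, so it changes which genes pass the threshold. With FPKM as deposited the median of the 92 genes was −0.066, beside −0.26 over all rows, and 22 genes were called, 10 higher (background 4.8%) and 12 lower (background 22.8%). Higher calls were 84% of the calls among the 92 genes after rescaling, 75% with upper quartile scaling and 45.5% with FPKM as deposited. Over all rows they were 54.6%, 43.4% and 17.4% of the calls under the same 3 scalings. Under both the rescaled and the deposited values, 10 genes were called higher and 4 lower. The share of all rows called under both was not counted, so this split has no background beside it. The median standard error of the 92 genes, 0.14, was close to the 0.15 of all rows.

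The calls also varied with the libraries used. The same 25 genes kept their sign in all 13 alternative fits. Without GXUR001 replicate 1, 2 or 3, however, 8, 1 and 9 of them were still called, and the others had an adjusted p of 0.050 to 0.21. Without TE4-10 replicate 1 or 3, 17 and 22 of them were still called, and the number of the 92 genes called was 19 and 34. In these fits 17 to 1845 rows of the whole table were called, against 1721 with all libraries.

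**Figure D3:**
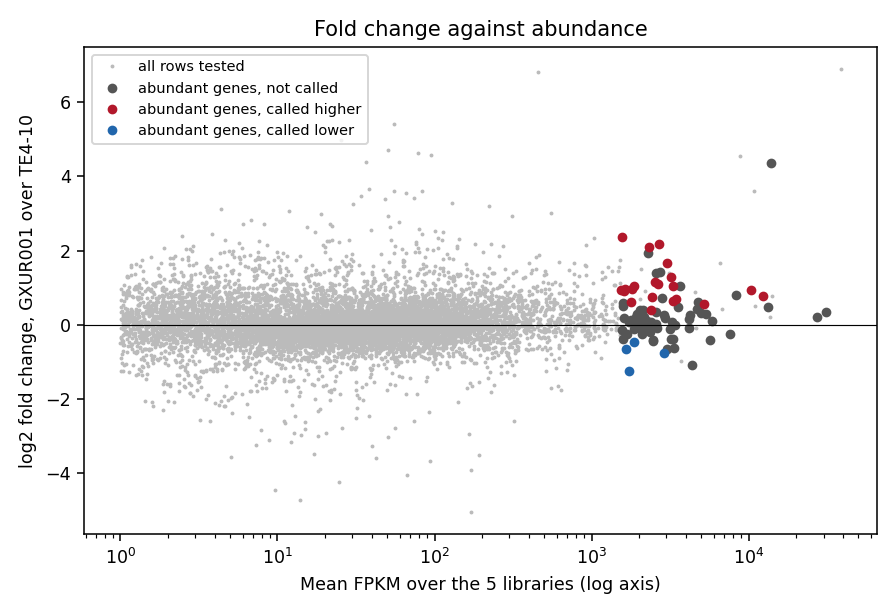
Log2 fold change of GXUR001 over TE4-10 after rescaling against mean FPKM over the 5 libraries (log axis), for all 9636 rows tested in grey and the 92 abundant genes in colour. The abundant genes fill the right edge of the plot from 1537 FPKM upwards, with 21 called higher and 4 called lower.

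Among the called genes, the 5 largest rises were found in genes without a listed function. *POX_c03750* had rescaled FPKM of 2422, 2459 and 2355 in GXUR001, against 529 and 410 in TE4-10, a 5.17-fold higher level (log2 fold change 2.37, SE 0.14, adjusted p = 0.0033). It stood at rank 57 in GXUR001 and at rank 373 in TE4-10, and it was the only gene of the 25 that stayed called whichever library was left out. *POX_d06043* had rescaled FPKM of 4383, 4234 and 3527 in GXUR001, against 598 and 1318 in TE4-10, and rose by a log2 fold change of 2.18 (SE 0.34, adjusted p = 0.018). *POX_c03783* had rescaled FPKM of 3497, 3507 and 3394 in GXUR001, against 550 and 1171 in TE4-10, and rose by 2.11 (SE 0.32, adjusted p = 0.016). In both genes the TE4-10 libraries differed by more than 2-fold, with the lower value in replicate 1. Without that replicate the log2 fold changes were 1.61 and 1.56, and without replicate 3 they were 2.75 and 2.65, in *POX_d06043* and *POX_c03783*.

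*POX_g09001* and *POX_d05953* followed among the called genes. *POX_g09001* had rescaled FPKM of 3763, 4260 and 4871 in GXUR001, against 1108 and 1617 in TE4-10, and rose by 1.67 (SE 0.21, adjusted p = 0.011). *POX_d05953* had rescaled FPKM of 4594, 4277 and 4012 in GXUR001, against 1745 and 1778 in TE4-10, and rose by 1.28 (SE 0.12, adjusted p = 0.0071). None of these 5 genes had overlapping strains. *POX_c03750*, *POX_d06043* and *POX_c03783* averaged 530, 1072 and 963 FPKM in TE4-10, below the last mean inside the threshold (1537 FPKM). They therefore entered the set through their GXUR001 values. *POX_g09001* averaged 1530 FPKM in TE4-10, just below that mean, and stood at rank 98 there. Without GXUR001 replicate 2, the adjusted p was 0.047 for *POX_c03750*, 0.087 for *POX_d06043*, 0.083 for *POX_c03783*, 0.074 for *POX_g09001* and 0.063 for *POX_d05953*. *POX_d06043* and *POX_c03783* also missed the threshold without GXUR001 replicate 1 (0.063 and 0.057) or 3 (0.053 and 0.056), and *POX_d06043* with no filter on low rows (0.053).

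Further genes were called higher by about 2-fold. Rescaled FPKM of *POX_e06723* was 4731, 4183 and 3895 in GXUR001, against 2209 and 1961 in TE4-10 (log2 fold change 1.03, SE 0.14, adjusted p = 0.013). *POX_g09300* averaged 2409 ± 76.1 rescaled FPKM in GXUR001 (SD, n = 3) and 1161 ± 19.3 in TE4-10 (SD, n = 2), with a log2 fold change of 1.05 (SE 0.10, adjusted p = 0.0072). *POX_a01812* averaged 2054 ± 192 rescaled FPKM in GXUR001 and 1059 ± 9.32 in TE4-10, with a log2 fold change of 0.95 (SE 0.12, adjusted p = 0.012). All 3 were without a listed function, and none overlapped between the strains. *POX_a00040*, *POX_a00863* and *POX_g09290* rose by 0.96, 0.92 and 0.92. In TE4-10, *POX_g09300*, *POX_a01812*, *POX_a00040*, *POX_a00863* and *POX_g09290* averaged 1309, 1193, 1354, 1219 and 1156 FPKM as deposited. These means lay below the last mean inside the threshold (1537 FPKM), so these genes entered the set through their GXUR001 values. *POX_d05375*, *POX_c04740*, *POX_g09295* and *POX_g09052* rose by smaller amounts, 0.41 to 0.74. The calls of *POX_e06723*, *POX_g09300* and *POX_a01812* were lost when GXUR001 replicate 2 was left out (adjusted p = 0.070 to 0.085) and held without any other library. Those of the other 7 genes were lost whichever GXUR001 library was left out (0.066 to 0.21). *POX_c04740*, *POX_g09295* and *POX_g09052* also lost theirs without TE4-10 replicate 1 (0.056 to 0.10), and *POX_a00863* and *POX_g09052* without TE4-10 replicate 3 (0.076 and 0.060). With FPKM as deposited all 7 lost their calls (0.055 to 0.46), and the log2 fold change of *POX_g09052* was 0.13.

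Falls were fewer, and only 4 genes were called lower. *POX_d05966* had rescaled FPKM of 1107, 1093 and 1009 in GXUR001, against 2556 and 2491 in TE4-10, and fell by 1.24 on the log2 scale (SE 0.10, adjusted p = 0.0068). It stood at rank 172 in GXUR001 and at rank 41 in TE4-10. *POX_b02293* had rescaled FPKM of 2334, 2228 and 2072 in GXUR001, against 3689 and 3760 in TE4-10, and fell by 0.75 (SE 0.11, adjusted p = 0.016). In both genes the spread within a strain was small beside the gap between strains. *POX_b02615* had rescaled FPKM of 1211, 1277 and 1435 in GXUR001, against 2154 and 1935 in TE4-10, and fell by 0.65 (SE 0.12, adjusted p = 0.028). *POX_e06638* had rescaled FPKM of 1615, 1590 and 1547 in GXUR001, against 2033 and 2367 in TE4-10, and fell by 0.47 (SE 0.12, adjusted p = 0.047). The strains did not overlap in any of the 4, and all 4 were also called lower with FPKM as deposited. *POX_d05966*, *POX_b02615* and *POX_e06638* averaged 995, 1223 and 1474 FPKM in GXUR001, below the last mean inside the threshold (1537 FPKM). They therefore entered the set through their TE4-10 values. Without GXUR001 replicate 2 the adjusted p was 0.063, 0.11, 0.14 and 0.20 for *POX_d05966*, *POX_b02293*, *POX_b02615* and *POX_e06638*. *POX_b02293*, *POX_b02615* and *POX_e06638* also lost their calls without GXUR001 replicate 1 (0.050 to 0.11) or 3 (0.053 to 0.12), *POX_b02615* without TE4-10 replicate 1 (0.070) and *POX_e06638* without TE4-10 replicate 3 (0.068), with no filter (0.068) or without a trend in the fit (0.051).

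**Figure D4:**
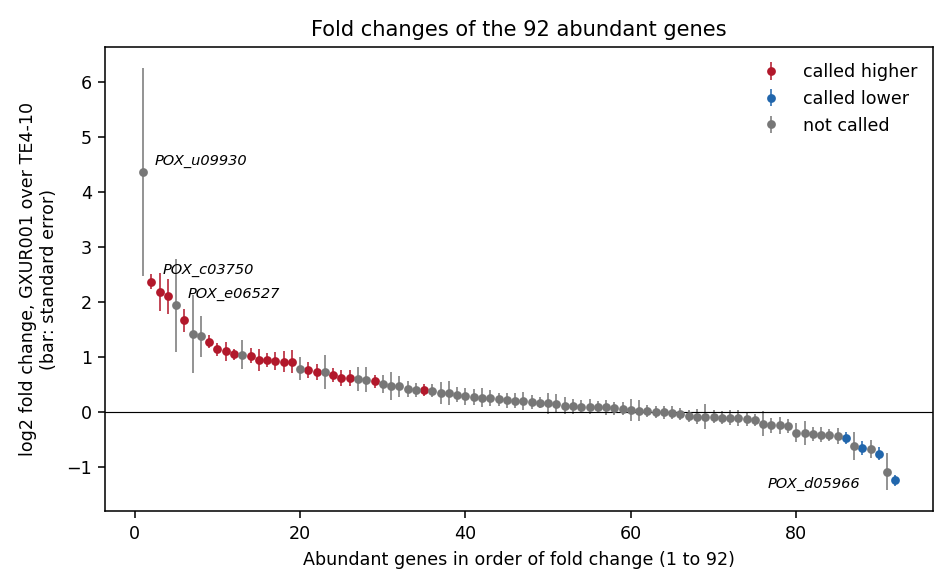
Log2 fold change of GXUR001 over TE4-10 after rescaling, with its standard error as a bar, for the 92 abundant genes in order of fold change, coloured by call. *POX_u09930* has the highest value (4.36) and the widest bar (1.89), and the lowest value belongs to *POX_d05966* (−1.24).

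Both core histone genes among the 92 had lower values in GXUR001, and neither was called. Histone H4 (*POX_c03699*) had rescaled FPKM of 3023, 2862 and 2705 in GXUR001, against 4385 and 3134 in TE4-10. The GXUR001 libraries were all lower, with a log2 fold change of −0.37 (SE 0.18, adjusted p = 0.20). Leaving out TE4-10 replicate 1 gave −0.14, and leaving out TE4-10 replicate 3 gave −0.62, which passed the test (adjusted p = 0.041). Histone H3 (*POX_c03700*) had rescaled FPKM of 2123, 2145 and 2121 in GXUR001, against 3015 and 2650 in TE4-10. These strains did not overlap either, and the log2 fold change was −0.41 (SE 0.11, adjusted p = 0.062). It was −0.50 without TE4-10 replicate 3 (adjusted p = 0.040) and −0.68 with FPKM as deposited (adjusted p = 0.024), and its adjusted p ran between 0.024 and 0.24 over all alternatives. The H3 and H4 genes have neighbouring identifiers and lie next to each other in the reference gene order.

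The cellodextrin transporter gene cdt-c (*POX_c04047*) had rescaled FPKM of 3054, 2751 and 2199 in GXUR001, against 5154 and 3194 in TE4-10. Its GXUR001 libraries were all lower, with a log2 fold change of −0.62 (SE 0.26, adjusted p = 0.15). Without TE4-10 replicate 1 the value was −0.28 and without TE4-10 replicate 3 it was −0.96, and with FPKM as deposited it passed the test (−0.89, adjusted p = 0.049). The actin gene (*POX_c04656*), which the study's methods use as the internal reference for RT-qPCR, had rescaled FPKM of 1992, 1831 and 1658 in GXUR001, against 1772 and 2087 in TE4-10. The strains overlapped, and the log2 fold change was −0.08 (SE 0.14, 95% interval −0.42 to 0.27, adjusted p = 0.72). With FPKM as deposited it was −0.35 (adjusted p = 0.088). Actin was chosen for mention after its values were seen.

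The 67 genes that were not called had log2 fold changes of −1.08 to 4.36. After rescaling, the strains overlapped in 30 of them and not in 37 (55.2%, against 43% of all uncalled rows). Of the 37, 25 were higher in GXUR001 (37.3%, against 20.7%) and 12 lower (17.9%, against 22.3%), a split that was not counted on the deposited scale. At an unadjusted p under 0.05, 15 of the 67 passed (22.4%, against 21.6% of all uncalled rows). A log2 fold change between −0.2 and 0.2 was found in 28 of the 92 genes. Genes of this kind were among the shortest and the longest: *POX_f08511* (310 bp) had a log2 fold change of −0.00072, *POX_f08403* (339 bp) of 0.03 and *POX_d05848* (5844 bp) of 0.07. *POX_e06757* came closest to a further call, with a log2 fold change of −0.67 and an adjusted p of 0.052.

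Large but uncalled differences were found in 6 genes, each beyond 2-fold, and in 5 of them GXUR001 was higher. *POX_u09930* showed the widest spread of all. It had 24594, 18826 and 14526 FPKM in GXUR001, against 108 and 11346 FPKM in TE4-10. In log2 of replicate 1 over replicate 3, the 2 TE4-10 libraries stood at −6.76 after rescaling, and both lay under every GXUR001 library. The log2 fold change was 4.36 (SE 1.89, adjusted p = 0.17). It was 0.98 without TE4-10 replicate 1 (adjusted p = 0.18) and 7.74 without TE4-10 replicate 3 (adjusted p = 0.0054).

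A low TE4-10 replicate 1 and a high GXUR001 replicate 1 were also seen in 3 rows outside the annotation, which were looked up after the values of *POX_u09930* were seen. The most abundant of them had 75695, 47308 and 39330 FPKM in GXUR001, against 7.88 and 31698 FPKM in TE4-10. The next had 17292, 14123 and 14609 FPKM in GXUR001, against 297 and 7811 FPKM in TE4-10. The last had 17656, 10120 and 9134 FPKM in GXUR001, against 52.2 and 6953 FPKM in TE4-10. Together these 3 rows took 9.01%, 5.80% and 4.87% of all FPKM in GXUR001, against 0.0280% and 3.81% in TE4-10. In all 4 rows TE4-10 replicate 1 was the lowest library and GXUR001 replicate 1 the highest. What these rows are is not given in the sources used here, and their part in the shares above was measured only by leaving them out. Without them and *POX_u09930*, the other 91 genes took on average 29.2% of the remaining FPKM in GXUR001 and 27.3% in TE4-10. By library this was 29.1%, 29.2% and 29.4% in GXUR001, against 27.3% and 27.2% in TE4-10, so the strains did not overlap on this base.

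*POX_e06527*, *POX_c03646*, *POX_b03406* and *POX_g09376* also had a low TE4-10 replicate 1. *POX_e06527* had rescaled FPKM of 3143, 3115 and 2982 in GXUR001, against 277 and 2309 in TE4-10. Its log2 fold change of 1.94 (SE 0.85, adjusted p = 0.17) was 0.41 without TE4-10 replicate 1 and 3.47 without replicate 3. This gene averaged 1434 FPKM in TE4-10, below the last mean inside the threshold (1537 FPKM). It therefore entered the set through its GXUR001 values. *POX_c03646* had rescaled FPKM of 3052, 3385 and 3881 in GXUR001, against 537 and 3030 in TE4-10. Its log2 fold change of 1.42 (adjusted p = 0.21) was 0.17 without TE4-10 replicate 1, where the other TE4-10 library came close to GXUR001 replicate 1. *POX_b03406* had rescaled FPKM of 3157, 3379 and 3826 in GXUR001, against 851 and 2041 in TE4-10, with a log2 fold change of 1.38 (adjusted p = 0.058). *POX_g09376* had rescaled FPKM of 4142, 4578 and 5245 in GXUR001, against 1683 and 2985 in TE4-10, with a log2 fold change of 1.05 (adjusted p = 0.052). After rescaling, none of these 4 genes overlapped between the strains, and neither did 53.1% of all rows. As deposited, *POX_c03646* did overlap, with 3347 FPKM in TE4-10 replicate 3 against 2683, 3119 and 3861 FPKM in GXUR001. Without TE4-10 replicate 3, the log2 fold change was 2.67 for *POX_c03646*, 2.01 for *POX_b03406* and 1.46 for *POX_g09376*.

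Between the TE4-10 libraries themselves, 6 of the 92 genes (6.52%, background 6.72%) were at least 2-fold apart after rescaling, and all 6 were lower in replicate 1 (background 3.1%). These were *POX_u09930*, *POX_e06527*, *POX_c03646*, *POX_b03406*, *POX_d06043* and *POX_c03783*, and all of them had positive log2 fold changes between the strains. The other 86 genes lay between −0.98 and 0.95 in log2 of replicate 1 over replicate 3. Typical genes were tight in both strains: the highest library exceeded the lowest by a median factor of 1.17 in GXUR001 and of 1.18 in TE4-10. A factor over 1.5 was found in 3 genes in GXUR001 (*POX_u09930*, *POX_a00825* and *POX_a00573*) and in 15 genes in TE4-10.

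**Figure D5:**
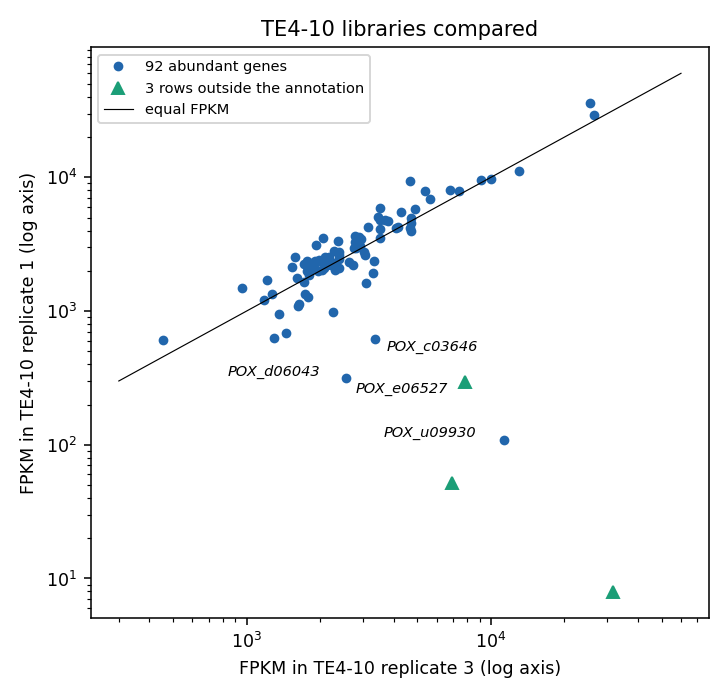
FPKM as deposited in TE4-10 replicate 1 against TE4-10 replicate 3 (both log axes), 1 point per abundant gene, with 3 rows outside the annotation as triangles and a line of equal FPKM. Most points follow the line, while *POX_u09930* (108 against 11346 FPKM) and the triangles lie far below it.

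Each of the identifier groups POX_a to POX_h held 3 to 17 of the 92 genes, and *POX_u09930* was the only one of its group. Direct neighbours in the reference gene order made up 5 pairs. Whether the 92 genes lie more grouped or more scattered than other genes was not tested. In 4 pairs both genes had the same sign of fold change. *POX_a00235* and *POX_a00236* were both called higher, with log2 fold changes of 0.62 (SE 0.15, adjusted p = 0.047) and 1.14 (SE 0.12, adjusted p = 0.0079). *POX_g08542* was called higher (1.11, SE 0.17, adjusted p = 0.017), whereas its neighbour *POX_g08543* was not (0.35, SE 0.22, adjusted p = 0.30). *POX_d05952* (−0.24, adjusted p = 0.31) and *POX_d05953* (1.28, adjusted p = 0.0071) had opposite signs. The densest stretch of 25 genes held 4 of the 92, namely *POX_c04719*, *POX_c04723*, the most abundant gene *POX_c04726*, and *POX_c04740*. Of these *POX_c04740* was called higher (0.68, SE 0.13, adjusted p = 0.025). Among the called neighbours, *POX_a00235* missed the threshold without any GXUR001 library or TE4-10 replicate 1 (adjusted p = 0.069 to 0.17) and with FPKM as deposited (0.35, adjusted p = 0.15), *POX_g08542* without GXUR001 replicate 1 or 2 (0.059 and 0.096), and *POX_a00236* and *POX_d05953* without GXUR001 replicate 2 (0.070 and 0.063).

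Other genes of housekeeping pathways could be read only as far as the study's table names them, in the copy that ends within the POX_d identifiers. That table lists genes chosen as differential on these same samples, so the counts are not independent evidence of direction. Among translation factors, 1 of 2 listed genes was called lower (*POX_a01318*, elongation factor 2, which moves the ribosome along the mRNA: log2 fold change −0.61, SE 0.10, adjusted p = 0.022). Both listed glycolysis genes were called lower, pyruvate kinase *POX_b02752* by −0.39 (adjusted p = 0.033) and phosphoglycerate kinase *POX_d05637* by −0.46 (adjusted p = 0.022). The putative external NADH-ubiquinone oxidoreductase *POX_c04183*, named for electron transfer in respiration, was called lower (−0.51, adjusted p = 0.028), and the putative Hsp70 chaperone *POX_c04425* was not called (−0.18, adjusted p = 0.41). Of 9 transporter and permease genes, 8 were tested and 4 were called lower, beside 8.11% of all rows, which were not chosen as differential. They included cdt-d (*POX_c04185*, −0.91, adjusted p = 0.036) and cdt-g (*POX_a00594*, −0.79, adjusted p = 0.023), relatives of the abundant cdt-c. None of these lists held a gene called higher. No ribosomal protein, redox defence or surface protein gene was named in that copy, and genes past its end could not be looked up.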

How the data were processed

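RNA-seq libraries of GXUR001 (n = 3) and TE4-10 (n = 2) were grouped by their labels. For each library, the authors deposited a table of FPKM values per gene. The submitters' processing notes name bcl2fastq and HISAT2, and the study's methods give the genome of *P. oxalicum* HP7-1 as the reference. The counting tool, its handling of strand and the annotation version are not given in the sources used here, so values of overlapping or near-identical genes may share reads, and so may genes with an antisense partner. FPKM values are not counts, and no count test was used.

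The 92 genes and all lists were chosen with earlier results of these data known. FPKM was rescaled per library by the median ratio to the geometric mean over libraries, taken over rows above 0 throughout and at least 1 FPKM on average. The 9636 rows averaging at least 1 FPKM entered limma 3.58.1 (R 4.3.3, eBayes with a trend) on log2(rescaled FPKM + 1), which understates changes of low rows. P-values were adjusted by Benjamini-Hochberg, and called means an adjusted p under 0.05 (residual degrees of freedom 3, prior 2.45). The fit was tested on simulated data. A permutation test of 3 libraries against 2 cannot pass 0.05 and was not used. Whether replicates came from separate cultures is stated by the study, not by the labels.

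Genes named by rule were those of the first 20 ranks, those with a listed function, and the 5 largest rises and falls among called genes without overlap. Other genes were named after their values were seen. Alternatives were the deposited scale, scaling to the upper quartile (percentile 75), pseudocount 0.1, no filter or one at a mean of 10 FPKM, eBayes with no trend, a block for the replicate number, annotated genes alone, each library left out, the ranking by strain means, and the first 50 or 200 ranks. The unadjusted p, the share weighted by gene length, and the shares and the median without *POX_u09930* or the 3 rows outside the annotation were added after seeing the data. The fold changes and p-values of the authors' own comparison in their table were not used. Python 3.11.15 and matplotlib 3.10.9 were used for shares and figures.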

Additional observations from a re-analysis of the deposited data

How the results depend on the processing

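Of 364 values of the 28 genes named by rule under alternatives, 295 kept their direction and their side of the threshold, 53 lost a call, 13 gained one and 3 changed sign. The sign changes were *POX_d05964* (−0.066) and *POX_c03575* (−0.17) with FPKM as deposited, and *POX_c03575* without TE4-10 replicate 3 (its values ran between −0.011 and 0.21 with 1 library left out). The median log2 fold change of the abundant genes was −0.066 with FPKM as deposited. The number of them called, 25 with all settings as chosen, was 12 with no filter, 0 with the replicate number as a block (36 at an unadjusted p under 0.05), 40 at an unadjusted p, 12 of 45 in the first 50 ranks, 43 of 188 in the first 200 ranks, and 1 to 34 when 1 library was left out. Over all rows, 1721 calls became 2661 with FPKM as deposited, 0 with the replicate block, and 17 to 1845 with 1 library left out. Deviations of same-numbered libraries from their strain means correlated at −0.01 for replicate 1 and 0.04 for replicate 3, over 2 pairs only. The deviations of the 2 TE4-10 libraries mirror each other, so these values cannot decide whether the shared numbers pair the samples. When 1 TE4-10 library was left out, the remaining one was assumed to vary like the other strain. The cause of these changes was not tested.

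The share of FPKM in GXUR001 was 32.1% over annotated genes alone, 21.2% for the first 50 ranks and 37.2% for the first 200. It was 25.9% without the most abundant gene, 26.9% without *POX_u09930*, and 23.7% weighted by gene length over rows with a listed length. Without *POX_u09930* and 3 rows outside the annotation it was 29.2%. In TE4-10 it was 29.1%, 19.4%, 35.9%, 24.6%, 26.6% and 22.1% under the first 6 of these settings. With 2 TE4-10 libraries the spread within that strain is poorly known. The study gives the same rounded number of clean reads for each sample, not a number per library.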
